A study of Anolis chlorocyanus and Anolis cybotes and Anolis osa with 24 samples.

Results

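Skeletal muscle expression was compared between the jaw and the leg of males from 4 lizard species of the genus Anolis: Anolis sagrei, Anolis osa, Anolis cybotes and Anolis chlorocyanus. The genes described here are those whose difference between the muscles met a rule for opposite directions in different species. They were chosen by measured values of the same libraries: counts were divided by the library total and converted to CPM, which scales every library to the same total, and the leg minus jaw difference of log2(CPM + 1) was taken for each number in the sample titles. A gene was kept if its mean over the 24 libraries was at least 10 CPM, if in at least 1 species the mean difference was 1 or more with all 3 differences above 0, and if in at least 1 other species it was -1 or lower with all 3 below 0. The first condition on differences is called leg-biased and the second jaw-biased below. Of 25920 genes in the table, 6298 reached 10 CPM and 19 of these, 0.302%, met the rule. Each species gave 3 jaw and 3 leg libraries, all from whole muscle, and the numbers in the titles (chlorocyanus 04, 06 and 08, cybotes 01, 03 and 08, osa 04, 05 and 07, sagrei 15, 16 and 17) occur once in each muscle. The labels do not say that a number is an animal, nor give age, treatment or a batch.

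Jaw and limb muscles of vertebrates have different embryonic sources: jaw closers arise from cranial mesoderm and limb muscles from somites, and their early development rests on partly different regulators. Adult muscles differ further in fibre type, in the metabolic enzymes that go with it, and in the connective tissue, vessels, nerve and fat that a whole-muscle extract contains. The question behind the comparison is which expression differences go with the kind of muscle. These 19 genes met a threshold for opposite directions, and a dependence on species was not tested apart from that rule. Without the threshold on size, 1091 of the 6298 genes over 10 CPM had a species with all differences above 0 and another with all below 0. How many would do so by chance was not tested. The deposited table lists Ensembl-style identifiers with no symbols, so no role can be given for any of the genes, and the tissue labels could not be set against marker genes. Identifiers are printed for the 2 genes with the highest and the 2 with the lowest species mean difference, by a fixed rule, and for the most abundant gene, which was added after its values were seen. The other 14 genes are told apart by their mean CPM over the 24 libraries.

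Library totals ranged from 1315319 to 1962685 counts, so that 1 count was worth 0.510 to 0.760 CPM and 3 counts, taken as the limit of detection, 1.53 to 2.28 CPM. The chlorocyanus 08 libraries stood apart with the highest scaling factors of the 24, 1.298 in jaw and 1.317 in leg by the TMM method. The median leg minus jaw difference of all genes over 10 CPM lay between -0.07 and 0.34 on the log2 scale in the 12 title numbers, highest in cybotes 03. In whole muscle, fewer cells of a type and less RNA per cell cannot be told apart.

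The cybotes leg and the osa and chlorocyanus jaw supplied most of the biased cases. In cybotes 11 of the 19 genes were leg-biased and 2 jaw-biased, where 9.96% and 1.6% of all genes over 10 CPM met those conditions. In osa 6 were leg-biased (5.75% of all genes) and 8 jaw-biased (2.13%). In chlorocyanus the counts were 3 (4.03%) and 7 (2.91%), and in sagrei 6 (6.34%) and 2 (1.52%). These shares come from the contrast that chose the genes, so they describe the set and nothing is read from them. No gene met the jaw-biased condition in more than 1 species, a count that rests on the thresholds. The gene at 47.3 CPM, jaw-biased in cybotes, had a mean difference of -0.95 in chlorocyanus with all 3 below 0. ENSACAG00000002200 and ENSACAG00000006296, jaw-biased in osa, had sagrei means of -2.38 and -1.49, but not all 3 below 0. The most frequent opposition was leg-biased in cybotes with jaw-biased in osa, seen in 6 genes, followed by cybotes leg with chlorocyanus jaw in 5. In 14 genes a single species stood on each side, and in 2 genes all 4 species were biased. Averaged over all 12 title numbers, 18 of the 19 genes had a leg minus jaw difference between -1 and 1.

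**Figure D1:**
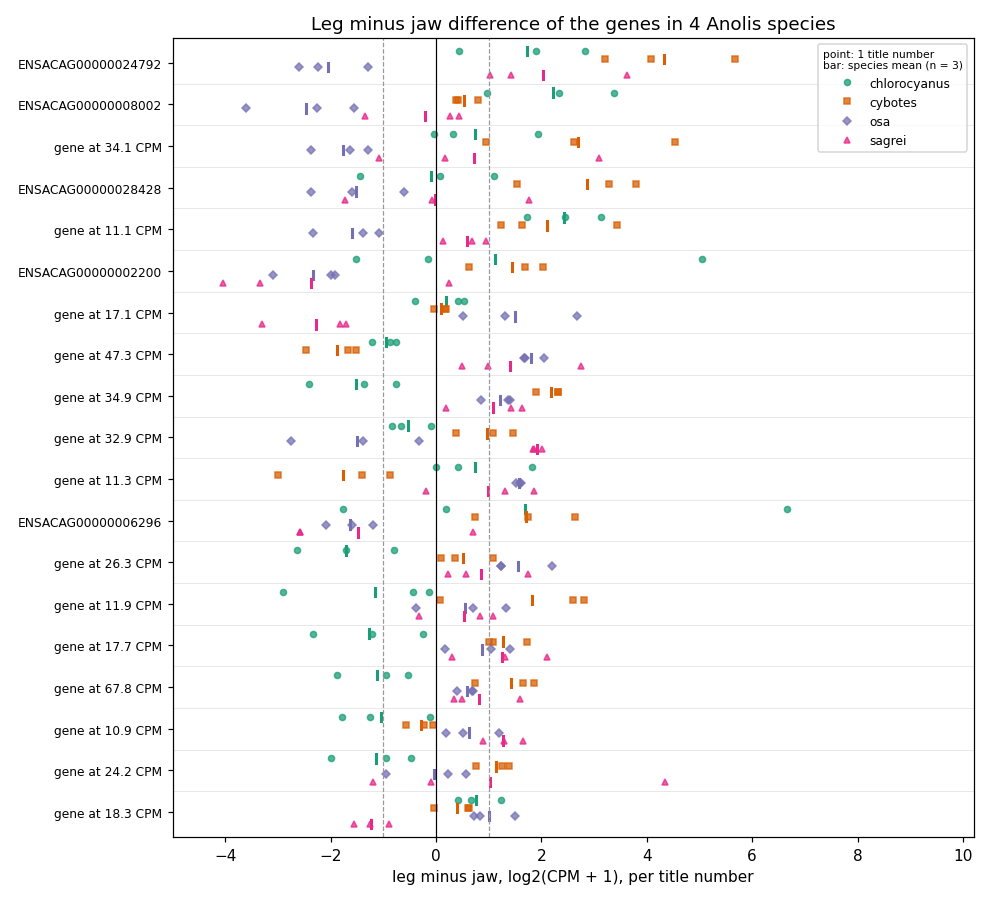
Leg minus jaw difference on the log2(CPM + 1) scale (horizontal axis) for each of the 19 genes (rows, ordered by the distance between the highest and lowest species mean), with 1 point per title number and a bar at each species mean (n = 3); dashed lines mark -1 and 1. The top gene runs from -2.05 in osa to 4.32 in cybotes, and the lowest row from -1.23 in sagrei to 1.01 in osa.

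The genes were mostly of modest abundance. Their median level was 24.2 CPM, against 34.0 CPM for all genes over 10 CPM, and 9 of the 19 (47.4%) were under 20 CPM, where 29.7% of all genes over 10 CPM lay. Only 2 exceeded 100 CPM. The distance between the highest and lowest species mean difference, called the span, ran from 2.25 to 6.37 with a median of 3.40 on the log2 scale, and was 0.67 at the median of all genes over 10 CPM. The rule fixes a large span. Just inside the threshold, the genes with the smallest margin had 1.01 and -1.23 (18.3 CPM), 1.27 and -1.05 (10.9 CPM), and 1.41 and -1.12 (67.8 CPM) in their leg-biased and jaw-biased species. Just outside it, 3 genes had jaw-biased means of -0.98, -0.98 and -0.99 beside leg-biased means of 1.52, 1.33 and 1.37.

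The 8 genes that were jaw-biased in osa include the 6 with the largest spans. ENSACAG00000024792 had the largest of all, at 6.37. In osa it stood at 301, 115 and 291 CPM in the jaw libraries of numbers 04, 05 and 07, and at 62.5, 46.0 and 47.1 CPM in leg. In cybotes the order was the reverse, with 3.45, 3.71 and 2.19 CPM in jaw (numbers 01, 03 and 08) and 74.6, 239 and 28.5 CPM in leg. The 3 leg and 3 jaw values did not overlap in either species. Sagrei also had its leg libraries high and close together, at 82.7, 76.6 and 95.5 CPM, above 30.2, 5.32 and 46.4 CPM in jaw. In chlorocyanus the muscles overlapped, with 56.9, 15.8 and 0 CPM in jaw and 77.6, 61.6 and 6.11 CPM in leg, although leg was the higher within each number. The mean differences on the log2 scale were 4.32 ± 1.25 in cybotes, 2.02 ± 1.40 in sagrei, 1.72 ± 1.20 in chlorocyanus and -2.05 ± 0.67 in osa (SD, n = 3). Among the 19, it alone had 3 leg-biased species opposed to osa.

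ENSACAG00000028428 was leg-biased in cybotes and jaw-biased in osa and had no steady direction in the other species. Its cybotes jaw libraries held 0, 1.48 and 1.46 CPM, under the limit of 3 counts, and its leg libraries 8.74, 33.6 and 6.12 CPM. In osa the jaw libraries held 11.0, 16.4 and 18.1 CPM and the leg libraries 1.32, 4.74 and 11.5 CPM. The cybotes muscles did not overlap, while in osa the leg library of number 07 came above the lowest jaw library. The mean difference was -0.09 ± 1.28 in chlorocyanus, -0.02 ± 1.75 in sagrei, -1.53 ± 0.88 in osa and 2.87 ± 1.19 in cybotes (SD, n = 3). With these low counts the value depended on the pseudocount, and with 5 in place of 1 the cybotes mean was 1.61.

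ENSACAG00000008002 was almost absent from chlorocyanus jaw and highest in osa jaw. Chlorocyanus jaw libraries held 1 count each, 0.729, 0.657 and 0.556 CPM, and the leg libraries 7.76, 16.1 and 2.04 CPM. Osa showed 59.4, 58.8 and 34.0 CPM in jaw and 3.95, 11.5 and 10.8 CPM in leg, again with no overlap. Leg levels lay within each other's spread, 8.65 ± 7.09 CPM in chlorocyanus and 8.76 ± 4.18 CPM in osa (SD, n = 3). In cybotes both muscles were at a middle level, 16.6, 15.6 and 16.1 CPM in jaw and 29.6, 20.5 and 21.7 CPM in leg. The sagrei values were 11.5, 9.12 and 9.81 CPM in jaw and 3.94, 12.8 and 11.9 CPM in leg, which overlapped. The mean differences were 2.23 ± 1.21 in chlorocyanus, 0.53 ± 0.23 in cybotes, -0.21 ± 0.98 in sagrei and -2.48 ± 1.04 in osa (SD, n = 3).

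ENSACAG00000002200 and the most abundant gene, ENSACAG00000006296, shared one pattern. ENSACAG00000002200 held 242, 494 and 261 CPM in osa jaw and 59.9, 56.8 and 68.1 CPM in osa leg. In cybotes its jaw libraries held 53.1, 51.2 and 18.98 CPM and its leg libraries 82.7, 212 and 63.2 CPM. The osa and cybotes muscles were therefore apart in both species, in opposite directions. Sagrei had the lowest mean difference, -2.38 ± 2.30 (SD, n = 3), but was not counted as jaw-biased: jaw exceeded leg by far in numbers 15 (495 against 28.9 CPM) and 17 (557 against 54.3 CPM), and not in number 16 (38.8 against 46.0 CPM). Chlorocyanus was as uneven, with 454, 127 and 0 CPM in jaw and 157, 114 and 32.1 CPM in leg. The mean differences were 1.45 ± 0.73 in cybotes, -2.34 ± 0.66 in osa and 1.12 ± 3.47 in chlorocyanus.

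ENSACAG00000006296 averaged 1131 CPM. Its osa jaw libraries held 1139, 2299.6 and 996 CPM and its osa leg libraries 378, 539 and 432 CPM, while in cybotes the jaw libraries held 362, 438 and 228 CPM and the leg libraries 606, 2720.3 and 768 CPM. Sagrei again split by number, with 3661, 221 and 4338 CPM in jaw against 613, 360.2 and 722 CPM in leg for numbers 15, 16 and 17. The chlorocyanus jaw libraries were far apart, with 3113 CPM in number 04, 924 CPM in number 06 and 2.23 CPM in number 08, where only 4 counts were recorded. The chlorocyanus leg libraries were closer together at 911, 1055 and 326 CPM. The mean differences were 1.71 ± 0.95 in cybotes, -1.63 ± 0.44 in osa, -1.49 ± 1.89 in sagrei and 1.70 ± 4.41 in chlorocyanus (SD, n = 3), and the last rests on number 08.

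**Figure D2:**
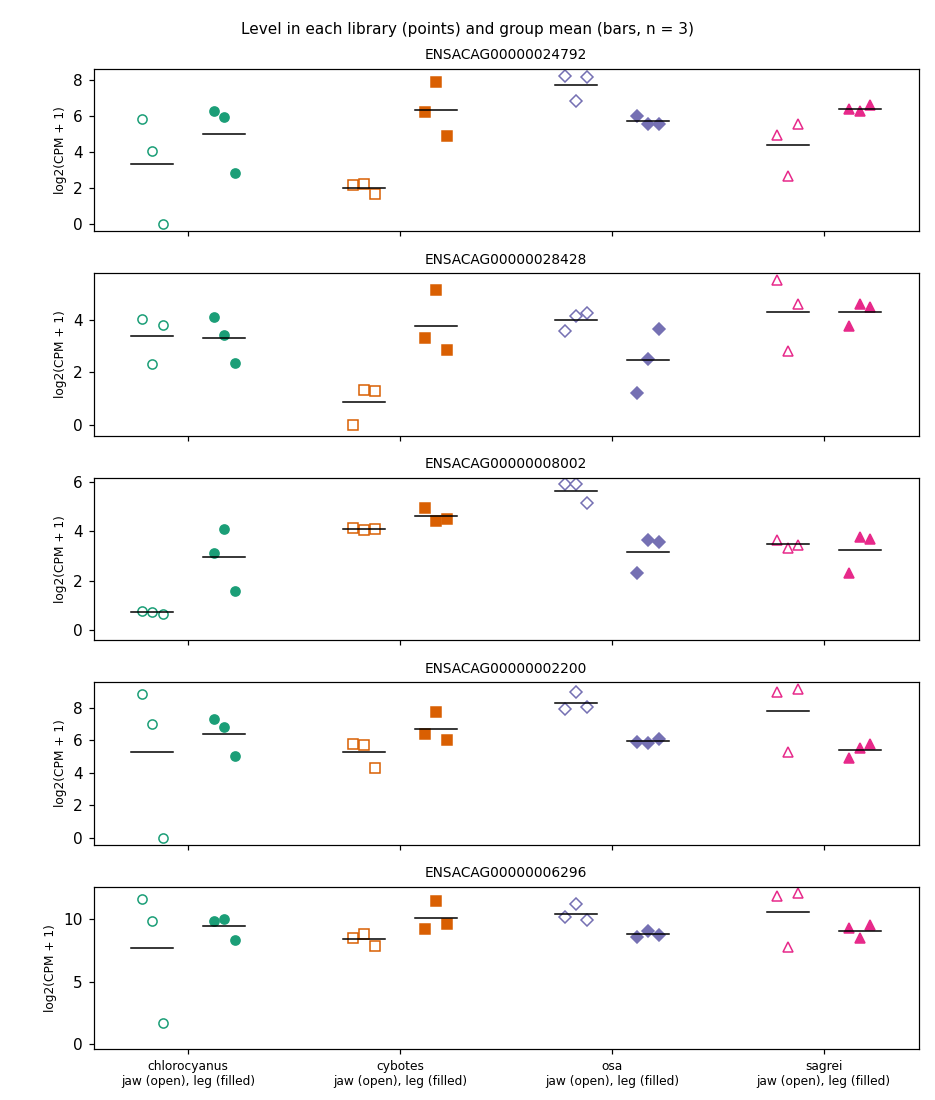
Level of the 5 genes given by identifier, as log2(CPM + 1), in each jaw (open) and leg (filled) library of the 4 species, with bars at the group means (n = 3). The osa jaw libraries lie above the osa leg libraries in 4 of the panels without overlap. The chlorocyanus 08 jaw library is at 0 in the panels of ENSACAG00000024792 and ENSACAG00000002200. It is the lowest library, at 2.23 CPM, in that of ENSACAG00000006296. The 3 chlorocyanus jaw libraries of ENSACAG00000008002 hold 0.729, 0.657 and 0.556 CPM.

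The remaining 3 genes jaw-biased in osa differed in their partner species. The gene at 34.1 CPM opposed cybotes (2.70 ± 1.80) to osa (-1.76 ± 0.55), with its highest value, 212 CPM, in the cybotes 03 leg library and the other 2 cybotes leg libraries at 34.9 and 16.3 CPM. The gene at 11.1 CPM was leg-biased in both chlorocyanus (2.43 ± 0.71) and cybotes (2.10 ± 1.18) and jaw-biased in osa (-1.60 ± 0.65), where its leg libraries held 3.29, 0.676 and 2.55 CPM. The gene at 32.9 CPM opposed sagrei to osa, with chlorocyanus at -0.53 ± 0.39. Cybotes, at 0.97 ± 0.55 with all 3 differences above 0, fell just short of leg-biased for this gene. Its 3 sagrei differences were nearly equal, with a mean of 1.91 ± 0.09, while its osa jaw libraries ranged from 40.2 to 174 CPM (mean difference -1.50 ± 1.22).

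The 7 genes that were jaw-biased in chlorocyanus had smaller spans, from 2.28 to 3.69. The gene at 34.9 CPM opposed chlorocyanus to all 3 other species. Its chlorocyanus libraries held 20.4, 35.5 and 198 CPM in jaw and 11.6, 13.2 and 36.2 CPM in leg, so that the muscles overlapped across numbers although jaw was higher in each. In cybotes it held 7.59, 11.1 and 12.4 CPM in jaw and 30.9, 59.3 and 65.9 CPM in leg, and in osa 22.7, 27.6 and 19.4 CPM against 61.8, 50.7 and 51.6 CPM. The mean differences were 2.18 ± 0.24 in cybotes, 1.08 ± 0.78 in sagrei, 1.21 ± 0.30 in osa and -1.52 ± 0.84 in chlorocyanus (SD, n = 3). The gene at 67.8 CPM had 68.5, 206 and 179 CPM in chlorocyanus jaw and 47.2, 106 and 47.9 CPM in leg, against 18.6, 37.8 and 18.98 CPM and 69.9, 63.8 and 61.8 CPM in cybotes. Its leg means were close, 67.0 ± 33.7 CPM in chlorocyanus and 65.2 ± 4.20 CPM in cybotes.

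The other 5 genes of this group were lower, between 10.9 and 26.3 CPM. The gene at 26.3 CPM opposed chlorocyanus (-1.71 ± 0.92) to osa (1.56 ± 0.56). The genes at 11.9 and 24.2 CPM opposed chlorocyanus (-1.16 ± 1.53 and -1.14 ± 0.78) to cybotes (1.83 ± 1.52 and 1.13 ± 0.33), and the gene at 17.7 CPM opposed chlorocyanus (-1.27 ± 1.05) to cybotes (1.27 ± 0.40) and sagrei (1.24 ± 0.91). The gene at 10.9 CPM opposed chlorocyanus (-1.05 ± 0.85) to sagrei (1.27 ± 0.38). With TMM-scaled CPM or a pseudocount of 5, the genes at 11.9 and 24.2 CPM did not meet the rule. Single libraries stood out here. The chlorocyanus 08 jaw library was the highest of the 12 jaw libraries for 4 of the 19 genes and the lowest, or tied for lowest, for 6. It held 107, 37.3 and 65.6 CPM of the genes at 26.3, 11.9 and 10.9 CPM, where the other chlorocyanus jaw libraries held at most 49.2, 5.25 and 15.3 CPM. The gene at 24.2 CPM reached 179.9 CPM in the sagrei 15 leg library, where no other library exceeded 53.0 CPM.

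Cybotes and sagrei each were the jaw-biased side of 2 genes. The gene at 47.3 CPM had 71.1, 246 and 176 CPM in cybotes jaw and 24.2, 43.9 and 54.4 CPM in leg, while osa held 13.9, 20.1 and 29.9 CPM in jaw and 46.7, 67.0 and 127 CPM in leg. No values overlapped in either species, and the mean differences were -1.88 ± 0.51 and 1.81 ± 0.22 (SD, n = 3). Sagrei was leg-biased too, at 1.41 ± 1.19. Chlorocyanus, at -0.95 ± 0.23 with all 3 differences below 0, fell just short of jaw-biased. The gene at 11.3 CPM had 71.8, 42.3 and 48.2 CPM in cybotes jaw and 8.07, 15.4 and 25.8 CPM in leg. In osa it was low, with 1.47, 2.23 and 0.694 CPM in jaw, at 1 to 3 counts each, and 6.58, 8.79 and 3.82 CPM in leg. The gene at 17.1 CPM was jaw-biased in sagrei, with 13.0, 15.2 and 21.6 CPM in jaw and 3.28, 0.639 and 5.37 CPM in leg. In osa it was leg-biased, with 6.60, 8.94 and 9.03 CPM in jaw and 9.87, 23.7 and 63.0 CPM in leg. The gene at 18.3 CPM had the same opposition at a smaller size (-1.23 ± 0.33 in sagrei and 1.01 ± 0.42 in osa). Its osa libraries stayed at or under 6.76 CPM. With TMM-scaled CPM or a pseudocount of 5 it did not meet the rule.

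Between the species with the highest and the lowest mean difference, called the most leg-biased and the most jaw-biased here, the jaw level usually differed more than the leg level. The difference was larger in jaw for 13 genes and larger in leg for 6, with a median size of 2.47 in jaw and 1.29 in leg on the log2 scale. In 15 genes the leg was higher and the jaw lower in the most leg-biased species. In the other 4, ENSACAG00000008002 and the genes at 32.9, 11.3 and 18.3 CPM, both muscles were lower there and the jaw by more. The jaw difference was -5.74 and the leg difference 0.63 for ENSACAG00000024792. The gene at 11.1 CPM had the largest leg difference, 3.21, with -0.82 in jaw. These values are parts of the span and describe the chosen genes.

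**Figure D3:**
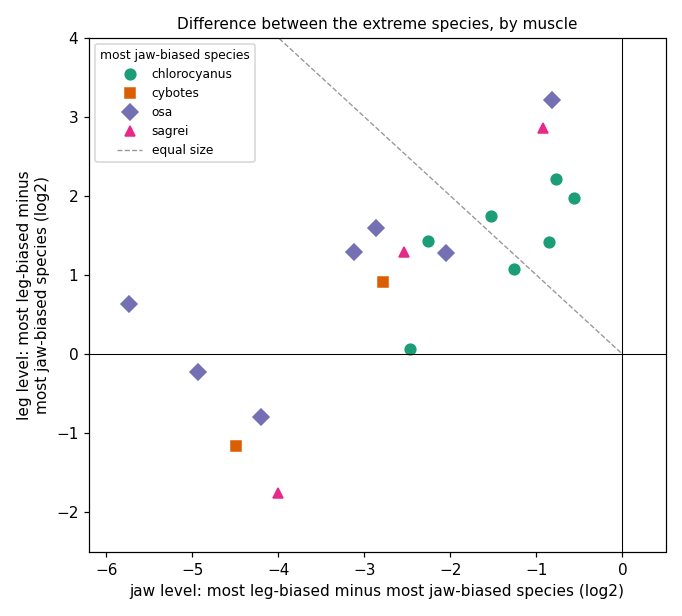
For each of the 19 genes, the difference in mean log2(CPM + 1) between its most leg-biased and most jaw-biased species, in jaw (horizontal axis) and in leg (vertical axis), with the symbol giving the most jaw-biased species. The 13 genes whose jaw difference is the larger include all 4 with a negative leg difference, and all jaw differences are negative.

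The leg minus jaw differences of the 19 genes were correlated over the 12 title numbers. Over the 171 pairs of genes the correlation had a median of -0.03, and 3 pairs exceeded 0.9. The rule chose the genes by these differences, with different species on each side, so nothing is read from that median. With the species means removed, the median was 0.05. The closest pair was ENSACAG00000002200 and ENSACAG00000006296, at r = 0.979 over the 12 title numbers and 0.978 over the 11 without chlorocyanus 08. Their log2(CPM + 1) levels correlated at 0.955 over the 24 libraries and 0.922 over the 23 without the chlorocyanus 08 jaw library. The points share libraries and title numbers, so these are descriptions. Among all genes over 10 CPM, 6 others correlated above 0.9 with either of the pair over the 12 title numbers, at mean levels from 62.0 to 923 CPM, and none of the 6 was among the 19. All 6 had their lowest jaw value in chlorocyanus 08, with at most 4 counts in that library of 1797467, although the other jaw libraries held at least 2.92 CPM. ENSACAG00000002200 and ENSACAG00000006296 had their largest differences in chlorocyanus 08, 5.05 and 6.66, and the correlation included that number. The 6 genes were chosen by that correlation, so nothing is read from their low values there. Their species mean differences were 2.04 to 3.57 in cybotes, 0.68 to 3.42 in chlorocyanus, 0.08 to 1.90 in sagrei and -0.81 to 0.53 in osa. None of them reached -1 in osa. For ENSACAG00000024792 the likest genes were a gene at 110 CPM that is not among the 19 (r = 0.930) and the gene at 34.1 CPM (r = 0.922).

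**Figure D4:**
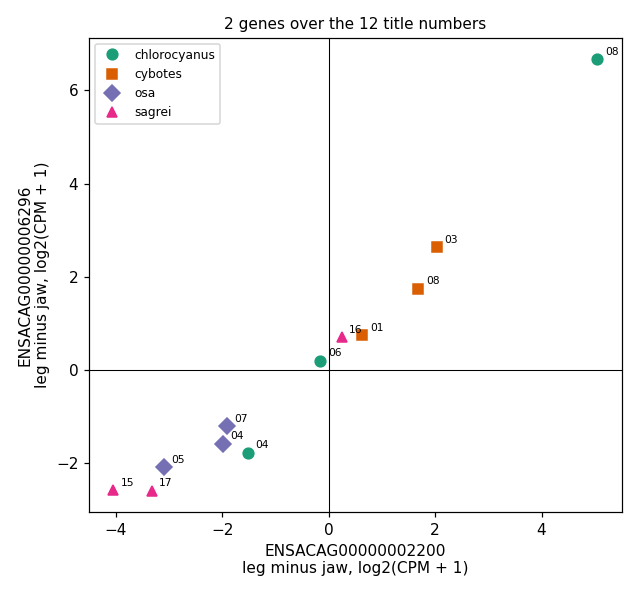
Leg minus jaw difference, log2(CPM + 1), of ENSACAG00000002200 (horizontal axis) and ENSACAG00000006296 (vertical axis) in the 12 title numbers, labelled by number and marked by species. The points lie close to 1 line (r = 0.979), with chlorocyanus 08 at the upper right and sagrei 15 and 17 at the lower left.

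The deposited table counts all 4 species on the same gene identifiers, and the genome build is not given. Whether reads of each species were counted equally well for a gene was not tested. With that limit, the level of the 19 genes in the 4 species was compared on the sums of both muscles. The rule used differences of the same jaw and leg counts, so the sums are not independent of it. The minimum of 10 CPM also bore on the level, since a gene could reach that minimum through 1 species alone. Without the libraries of their highest species, 5 of the 19 genes fell under 10 CPM over the other 18 libraries: ENSACAG00000028428 (9.79 CPM) and the genes at 11.3 CPM (3.31), 10.9 CPM (8.004), 11.1 CPM (8.68) and 18.3 CPM (8.91). A species difference in these 5 is a description only. Jaw and leg counts of each number were summed and the 12 sums compared with the quasi-likelihood test of edgeR, adjusting by Benjamini-Hochberg over all genes tested. Of the 19 genes, 7 passed an adjusted p of 0.05 (36.8%), beside 43.8% of the 9908 genes tested, and 4 of the 7 were among those 5. Over the 6 species pairs, 23 of 114 tests passed (20.2%), beside 19.1% for all genes. The test sets differences between species against the spread of the sums within a species, which may be technical. The labels do not say that a number is an animal. In jaw libraries alone 12 of the 19 passed (63.2%, beside 42.6% of all genes), and in leg libraries alone 10 (52.6%, beside 33.5%). The rule makes a species difference in at least 1 muscle necessary, so nothing is read from the single-muscle counts. Among the genes that did not pass on the sums, ENSACAG00000024792 had an adjusted p of 0.293 by edgeR, ENSACAG00000002200 of 0.585 and ENSACAG00000006296 of 0.715, which does not show equal levels.

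The other 3 genes past the threshold reached 10 CPM without their highest species. In each of the 3 that species was also the jaw-biased one. The high jaw counts that made the bias enter its sums, so these adjusted p-values are not apart from the rule. The gene at 47.3 CPM was highest in cybotes (101 ± 39.0 CPM) and lowest in chlorocyanus (15.6 ± 5.75 CPM; SD, n = 3), in TMM-scaled CPM of the sums. All 3 cybotes sums exceeded the 3 chlorocyanus sums, and the edgeR adjusted p over the 4 species was 0.00403. The gene at 32.9 CPM was highest in osa (64.7 ± 28.4 CPM) and lowest in sagrei (13.3 ± 8.42 CPM), with an edgeR adjusted p of 0.00421. ENSACAG00000008002 was lowest in chlorocyanus (5.08 ± 3.91 CPM) and higher in cybotes (21.7 ± 5.07 CPM) and osa (27.1 ± 6.07 CPM), with log2 fold changes over chlorocyanus of 2.13 (SE 0.52, edgeR adjusted p = 0.0114) and 2.46 (SE 0.52, edgeR adjusted p = 0.00439). All 3 sums of each exceeded the 3 chlorocyanus sums.

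In 1 muscle alone, 2 of these 3 calls were lost, both in leg libraries: ENSACAG00000008002 (edgeR adjusted p = 0.120) and the gene at 32.9 CPM (0.0517). With all 24 libraries and the title number as a random replicate block in limma voom, ENSACAG00000024792 passed (limma adjusted p = 0.0200), as did the gene at 17.1 CPM (0.0290, against 0.0695 by edgeR on the sums). The gene at 11.1 CPM, past the threshold on the sums, did not pass in that fit. ENSACAG00000024792 passed in no other fit that used both muscles. All these fits used the jaw and leg counts that the rule used, so nothing is read from these calls.

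The remaining 4 genes past the threshold are described without a test. The gene at 11.3 CPM stood at 37.2 ± 10.7 CPM in cybotes, 5.18 ± 4.62 CPM in sagrei, 3.84 ± 1.62 CPM in osa and 0.669 ± 0.581 CPM in chlorocyanus, with all 3 cybotes sums above the other 9. The gene at 18.3 CPM had 44.6 ± 26.2 CPM in sagrei, 15.8 ± 1.65 CPM in chlorocyanus, 6.81 ± 4.21 CPM in cybotes and 4.24 ± 0.773 CPM in osa, with the 3 sagrei sums above the rest. The gene at 10.9 CPM had 17.1 ± 13.7 CPM in chlorocyanus and 15.1 ± 6.15 CPM in sagrei. It had 5.71 ± 0.673 CPM in cybotes and 3.65 ± 1.31 CPM in osa. Its chlorocyanus sums were 12.3, 6.33 and 32.5 CPM in numbers 04, 06 and 08. The gene at 11.1 CPM had 19.9 ± 13.5 CPM in cybotes and 16.4 ± 6.17 CPM in chlorocyanus. In sagrei it had 5.49 ± 3.11 CPM and in osa 4.64 ± 0.795 CPM (SD, n = 3). Over all 19 genes, the species with the highest sum was jaw-biased in 9, leg-biased in 5 and neither in 5. Among the 7 past the threshold, that species was jaw-biased in 6 and leg-biased in 1. The counts that made a bias enter the sums of its species, and the minimum of 10 CPM also bore on them. Nothing is read from these counts of genes.

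**Figure D5:**
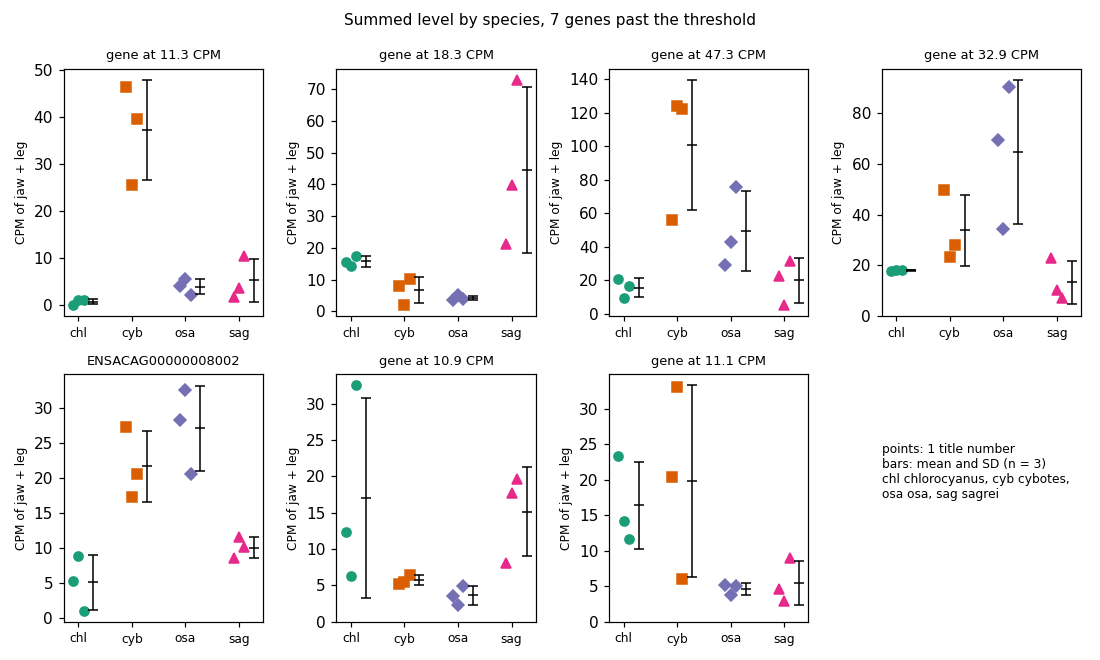
TMM-scaled CPM of the summed jaw and leg counts in the 4 species for the 7 genes past an adjusted p of 0.05, of which those at 11.3, 18.3, 10.9 and 11.1 CPM reached the minimum level only with their highest species, with 1 point per title number and the mean and SD beside them (n = 3). The 3 cybotes points of the gene at 11.3 CPM and the 3 sagrei points of the gene at 18.3 CPM lie above all other points of their panels.

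The 19 genes also varied widely between the title numbers of a species. The SD within species of the log2 CPM of the sums, pooled over the 4 species, had a median of 0.78 in these genes and 0.46 in all 9908 genes tested, or 0.40 in those tested genes with at least 10 CPM. All 19 exceeded the median of all genes, 17 exceeded its 75th percentile and 5 its 95th. The 5 were ENSACAG00000002200 (1.48), ENSACAG00000024792 (1.47), ENSACAG00000006296 (1.44), the gene at 24.2 CPM (1.20) and the gene at 34.1 CPM (1.07). The lowest was the gene at 67.8 CPM, at 0.48. The part of this spread in the choice of the genes was not tested.

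In a fit with the title number as a replicate block, the interaction of muscle and species passed an adjusted p of 0.05 for 14 of the 19 genes, beside 2.98% of the 9123 genes tested (edgeR). The rule used this contrast, so nothing is read from the count. Without the block it passed for 0 of the 19 and for 1 of the 9123 (0.011%). Within the biased species, the 3 leg and 3 jaw CPM values did not overlap in 26 of the 45 gene-by-species cases (57.8%), beside 74.6% of the 2156 such cases among all genes over 10 CPM. In the other 19 cases the ranges of the muscles overlapped. The direction held within each title number there because the rule required it. In places it rested on library totals alone. The gene at 11.9 CPM had 4 jaw and 4 leg counts in chlorocyanus 04, and the gene at 10.9 CPM had 10 and 10 in chlorocyanus 06.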

How the data were processed

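Per the labels' protocols, whole muscle was extracted with Trizol, and BGI made the libraries. The authors deposited raw counts per gene for 24 libraries. STAR is named in the submitters' processing notes. For the genome build, annotation, counting program and strand setting: not given in the sources used here. No column belonged to another sample (0). The members and lists were chosen with earlier results of these data known. Lists of marker genes could not be matched, since the table has no symbols, and were not analysed.

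CPM used the column total and a pseudocount of 1. Species were compared on 12 sums of jaw and leg counts by edgeR 4.0.16 in R 4.3.3 (filterByExpr, TMM, quasi-likelihood test, Benjamini-Hochberg adjustment, threshold 0.05). DESeq2 1.42.0 and limma 3.58.1 served as alternatives, beside other scalings, filters, thresholds, single muscles and leaving out each title number. Libraries with the same number deviated together from their group means, with a correlation of 0.296 to 0.740 for every number, so the numbers were taken to pair the libraries. Replicates differed by more than sampling noise, with a chi-square of 7.30 to 61.3 per degree of freedom. The fits were tested on simulated data. Identifiers were printed for the 2 genes with the highest and the 2 with the lowest species mean difference, the rule for a table without names. Library totals limit the precision, and 3 counts correspond to 1.53 to 2.28 CPM, counting error only.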

Additional observations from a re-analysis of the deposited data

Results flagged for a closer look

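Each of the 19 genes moved one way in all 3 title numbers of one species and the opposite way in all 3 of another. That is the property that selected them, and the difference was not tested. The distance between the highest and lowest species mean of the leg minus jaw difference, on the log2(CPM + 1) scale, was 6.37 for ENSACAG00000024792, 4.70 for ENSACAG00000008002, 4.40 for ENSACAG00000028428, 3.83 for ENSACAG00000002200 and 3.33 for ENSACAG00000006296. Among the genes told apart by their mean level, it was 4.46 (34.1 CPM), 4.04 (11.1 CPM), 3.78 (17.1 CPM), 3.69 (47.3 CPM), 3.69 (34.9 CPM), 3.40 (32.9 CPM) and 3.34 (11.3 CPM). For the remaining genes it was 3.27 (26.3 CPM), 2.99 (11.9 CPM), 2.54 (17.7 CPM), 2.54 (67.8 CPM), 2.33 (10.9 CPM), 2.28 (24.2 CPM) and 2.25 (18.3 CPM).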

How the results depend on the processing

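The number of genes meeting the rule depended on its settings. It was 11 with a pseudocount of 5, 34 with a minimum of 5 CPM, 10 with 20 CPM, 69 with no filter on low values, 11 with a mean difference of 1.5 and 204 with 0.5. The scaling changed which genes met the rule. With TMM-scaled CPM 23 genes met it, 16 of the 19 among them, and with median-ratio-scaled CPM 21, with 15 of the 19. After centring the differences of each title number on their median, the number was 21, with 16 of the 19. Without 1 title number it was 19 to 32, highest without cybotes 01, and 15 to 19 of the 19 genes were kept, fewest without chlorocyanus 08. Leaving out a number could not break the sign condition, so a gene could be lost there only through its mean difference or mean level. Of the 19, 8 were kept in each of 8 settings and without each of the 12 title numbers. These 8 settings left out the minimum of 20 CPM and the mean difference of 1.5. They included the pseudocount of 5, which kept only 11 of the 19. A pseudocount of 0.5, the minimum of 5 CPM, no filter on low values and the mean difference of 0.5 were also among them. Those only loosen the rule, so none of the 19 could be lost there. The genes at 11.9, 24.2 and 18.3 CPM met the rule in only 4 of the 8 settings, the ones that loosen it. They did not meet it with either other scaling, with centring or with the pseudocount of 5. With no replicate block the interaction count was 0 in place of 14 (0.011% of all genes). Of the 19 genes, 12 differed in level between species in jaw libraries alone (63.2%, all genes 42.6%), with 6 gained and 1 lost. In leg libraries alone 10 did (52.6%, all genes 33.5%), with 5 gained and 2 lost. With the title number as a random replicate block 8 did (42.1%, all genes 48.9%). The count was 9 with no filter on low counts (47.4%, all genes 32%) and 9 with DESeq2 (47.4%, all genes 49.7%). Without 1 title number it was 7 to 10 and none of the 7 calls was lost, where 35.1% to 45.9% of all genes passed. The 7 calls are not apart from the rule and its minimum level, so nothing is read from their retention. Of 114 pair tests, 14 passed with limma voom on the sums (12.3%, all genes 18.3%) and 38 in jaw libraries alone (33.3%, all genes 18.2%). With no filter on low counts 31 passed (27.2%, all genes 12.9%), and with DESeq2 29 (25.4%, all genes 22%). Without 1 title number 15 to 26 passed, where 14% to 19.8% of the pair tests of all genes did. ENSACAG00000028428 was also called without cybotes 03 and in jaw libraries alone, but it reached 10 CPM only with its highest species. Its change is a description only. ENSACAG00000024792 was called in jaw libraries alone (edgeR adjusted p = 0.00284). The rule makes a species difference in at least 1 muscle necessary, so nothing is read from the jaw calls. The cause of these changes was not tested.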
